A study of Homo sapiens with 12 samples.

Results

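The respiratory chain of the inner mitochondrial membrane was followed through the mRNAs of its nuclear-encoded subunits after transcription was stopped in an Ewing sarcoma cell line. The genes were chosen by name only: symbols of the count table that begin with NDUFA, NDUFB, NDUFC, NDUFS or NDUFV and a number, SDHA to SDHD, symbols that begin with UQCR, COX4 to COX8 or ATP5, and CYC1. Symbols with a hyphen and symbols that end in P and a number (read-through, antisense and pseudogene entries) were left out, which removed 7. This gave 87 of the 26334 symbols, and 79 of them passed the filter of a mean of at least 10 counts per library. The rule itself uses names and no measured value.

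The cells, labelled shA673-1c, derive from A673, and shA673-1c is known as a clone of A673 with an inducible short hairpin RNA against the EWSR1-FLI1 fusion. The labels list blasticidin and zeocyn in the medium of every culture and name no inducer. Cultures received 5 µM actinomycin D, a DNA intercalator that stops transcription, for 0, 1, 2 or 4 h, with 3 biological replicates per time and 12 poly(A)-selected libraries in all. The cells at 0 h are the only control, and no culture was kept for 4 h without the drug, so time in culture and the drug cannot be told apart. Libraries held 9147018 to 11194705 counts, and no added RNA standard was given. A slope is the change per hour in the share a gene takes of the remaining poly(A) RNA after TMM scaling (which centres the libraries on the bulk of genes). A rise is therefore relative to other mRNAs and does not by itself show new synthesis, which was not measured. Fewer cells and less RNA per cell cannot be told apart.

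The chain passes electrons from NADH (complex I) and succinate (complex II) through ubiquinone to complex III, cytochrome c and complex IV, which reduces oxygen. Complexes I, III and IV pump protons, and complex V, the ATP synthase, uses the gradient to make ATP. Complexes I, III, IV and V join nuclear-encoded subunits, imported from the cytosol, with subunits encoded in mitochondrial DNA, while complex II is wholly nuclear. By complex, 36 of 36 genes of complex I were tested, 4 of 4 of complex II, 10 of 10 of complex III, 11 of 18 of complex IV and 15 of 16 of complex V. NDUFA4 and NDUFA4L2 carry complex I names but were counted with complex IV, where NDUFA4 is found. Of the symbols taken in by name, 3 are not subunits: COX7A2L, a supercomplex factor, and ATP5S and ATP5SL (DMAC2L and DMAC2), named after ATP synthase. Below the filter were NDUFA4L2 with a mean of 7.17 counts, ATP5L2 with 0.25 and COX6B2 with 0.167, and COX4I2, COX6A2, COX7A1, COX7B2 and COX8C were at 0 counts in all 12 libraries. The last 5 include muscle, lung and testis forms of complex IV subunits. A count of 0 in a single library allows up to 3 counts there, and 0 in all 12 allows fewer per library. This limit covers counting error only. None of the 13 genes of mitochondrial DNA was in the count table used here, so that side of the complexes was not analysed.

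The time labels were checked on short-lived mRNAs. MYC, a transcription factor gene, fell by 1.12 per hour on the log2 scale (SE 0.10) and JUN, a subunit of AP-1, fell by 0.89 (SE 0.10). Of 9 markers of Ewing sarcoma, 8 were detected, with a summed level of 2276 to 2611 CPM per library, and CD99 was listed at 0 in every library, and why was not tested. Among the 8, FLI1, NKX2-2 and NR0B1 fell and EWSR1 and CCND1 rose. Of 12 markers of blood, epithelium, endothelium, liver, muscle and glia, CD3E, ALB and MYOD1 were among those at 0 throughout and 1 (DES) passed the filter, with a summed level of 0.931 to 4.12 CPM for the whole list.

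Most subunit mRNAs rose relative to the other mRNAs of the cell. With edgeR's quasi-likelihood test on time in hours, 73 of the 79 tested genes rose (adjusted p below 0.05, all 12032 tested genes as the family), against 30.7% of all tested genes. NDUFV3 and UQCRFS1 fell, against 32.1% of all tested genes. The other 4, NDUFV2, SDHD, ATP5E and ATP5S, did not pass the threshold. The median slope of the 79 was 0.121 log2 units per hour, against 0.0093 for all tested genes. Slopes of 77 of the 79 lay above that all-gene median and of 64 above the all-gene upper quartile of 0.089. In single replicates the median of the 79 was 0.128, 0.114 and 0.116. Comparing 4 h with 0 h directly, 71 were higher and 2 lower, against 28.7% and 31.6% of all tested genes. A replicate block in the fit gave 74 higher (36.8% of all tested genes) and 2 lower, and the calls gained were ATP5E, NDUFA5 and NDUFC1. All 3 libraries at 4 h lay above all 3 at 0 h for 71 genes and below for 1, against 30.4% and 33% of all tested genes. Together the genes took 0.908% ± 0.035 of the counts at 0 h and 1.10% ± 0.036 at 4 h (SD, n = 3).

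The direction rested on the scaling. When libraries were scaled to the counts of GAPDH and ACTB, a glycolytic enzyme and a cytoskeletal protein often taken as stable, the median of all tested genes moved to -0.128 per hour. Under that scaling 0 of the 79 rose by edgeR (1 at an unadjusted p below 0.05) and 12 fell, and 0.931% of all tested genes rose and 64.2% fell. GAPDH itself had a slope of 0.152 (SE 0.013) under TMM, and ACTB 0.122 (SE 0.025). A scaling shifts every gene of a library alike. The excess of the median of the 79 over that of all tested genes is therefore nearly fixed across scalings by construction. Its measured size was 0.112 under TMM and 0.111 under GAPDH plus ACTB. All directions that follow are relative to TMM.

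**Figure D1:**
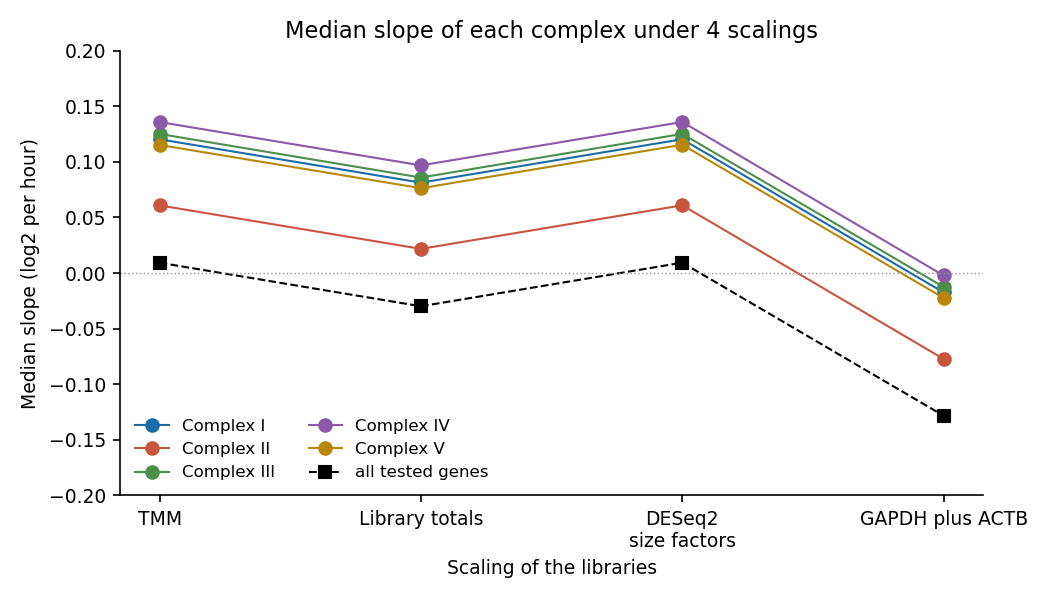
Median slope (log2 per hour, y axis) of the tested genes of each complex (coloured circles) and of all tested genes (black squares) under 4 scalings of the libraries (x axis); lines join the same group and have no other meaning. The groups move together, with all tested genes at 0.0093 under TMM and -0.128 under GAPDH plus ACTB, and complex II between all tested genes and the other 4 complexes under each scaling.

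The complexes differed little in their medians, apart from complex II. The median slope was 0.120 for complex I, 0.061 for complex II, 0.125 for complex III, 0.136 for complex IV and 0.115 for complex V. In single replicates, complex II had medians of 0.073, 0.057 and 0.052, below the lowest of the other 4 complexes in any replicate, 0.108. These replicate medians ranged from 0.109 to 0.121 for complex I, 0.117 to 0.127 for III, 0.122 to 0.153 for IV and 0.108 to 0.133 for V, so that complex I lay just below complex IV and the other pairs of these 4 overlapped. No test was made between complexes, since genes of a complex are not replicates, and complex II has only 4. Genes called rising were 34 of 36 in complex I, 3 of 4 in complex II, 9 of 10 in complex III, 11 of 11 in complex IV and 14 of 15 in complex V. With NDUFA4 grouped by its name, the medians of complexes I and IV were 0.121 and 0.135.

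**Figure D2:**
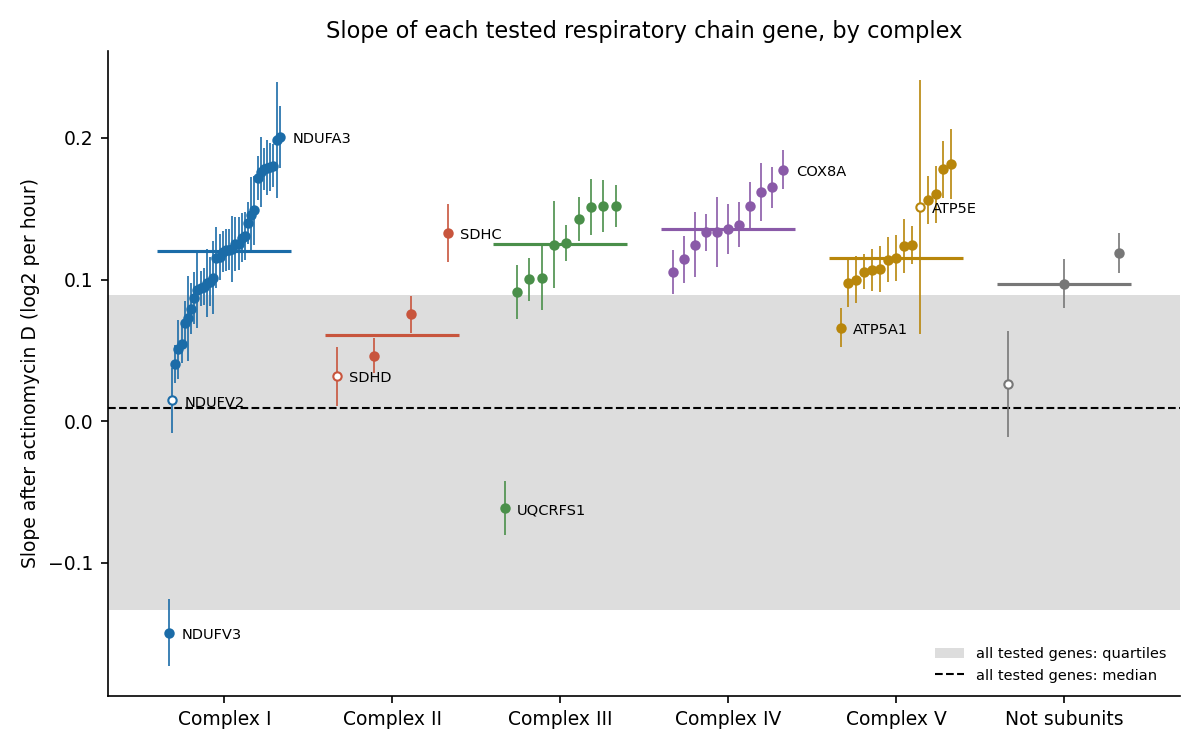
Slope after actinomycin D (log2 per hour, y axis) of each of the 79 tested genes, grouped by complex (x axis) and ordered within it; points are estimates with their standard error, filled where the edgeR adjusted p was below 0.05, coloured lines are medians, and the dashed line and grey band are the median and the quartile range of all 12032 tested genes. NDUFV3 and UQCRFS1 are the only genes of the 79 below 0, and all 11 genes of complex IV lie above the grey band.

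In complex I, which oxidises NADH, the genes of the flavoprotein fraction (NDUFV1, NDUFV2 and NDUFV3) went apart. NDUFV1, which binds FMN and NADH, was at 97.7, 90.4 and 105 CPM at 0 h and at 164, 152 and 168 CPM at 4 h. The 4 h libraries of NDUFV1 lay above those at 0 h with no overlap, and its slope was 0.18 per hour (SE 0.02, edgeR adjusted p = 4.4e-08). NDUFV2, an iron-sulfur subunit next to it, was at 74.1, 90.0 and 86.8 CPM at 0 h and at 78.8, 92.5 and 82.9 CPM at 4 h. These groups of NDUFV2 overlapped, and its slope was 0.015 (SE 0.023, edgeR adjusted p = 0.59). NDUFV3, an accessory subunit, was at 32.4, 32.6 and 34.6 CPM at 0 h, at 33.9, 30.1 and 30.6 at 1 h, at 31.4, 27.2 and 24.8 at 2 h and at 21.4, 24.1 and 21.0 at 4 h. All 3 libraries of NDUFV3 at 4 h lay below those at 0 h, and its slope was -0.15 (SE 0.02, edgeR adjusted p = 4.0e-05), the lowest of the 79 tested genes. Without the 4 h libraries the slope of NDUFV3 was -0.12 and no longer passed (edgeR adjusted p = 0.093).

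Ratios of counts within a library do not depend on the scaling. The ratio of NDUFV3 to NDUFV1 was 0.340 ± 0.018 at 0 h, 0.283 ± 0.019 at 1 h, 0.217 ± 0.022 at 2 h and 0.138 ± 0.017 at 4 h (SD, n = 3), which left 40.6% of its start. That of NDUFV2 to NDUFV1 was 0.859 ± 0.123 at 0 h and 0.527 ± 0.069 at 4 h, or 61.3%. In each of the 3 replicates both ratios were lower at 4 h than at 0 h. These pairs were chosen after their slopes were known, so the ratios are descriptions with no test.

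**Figure D3:**
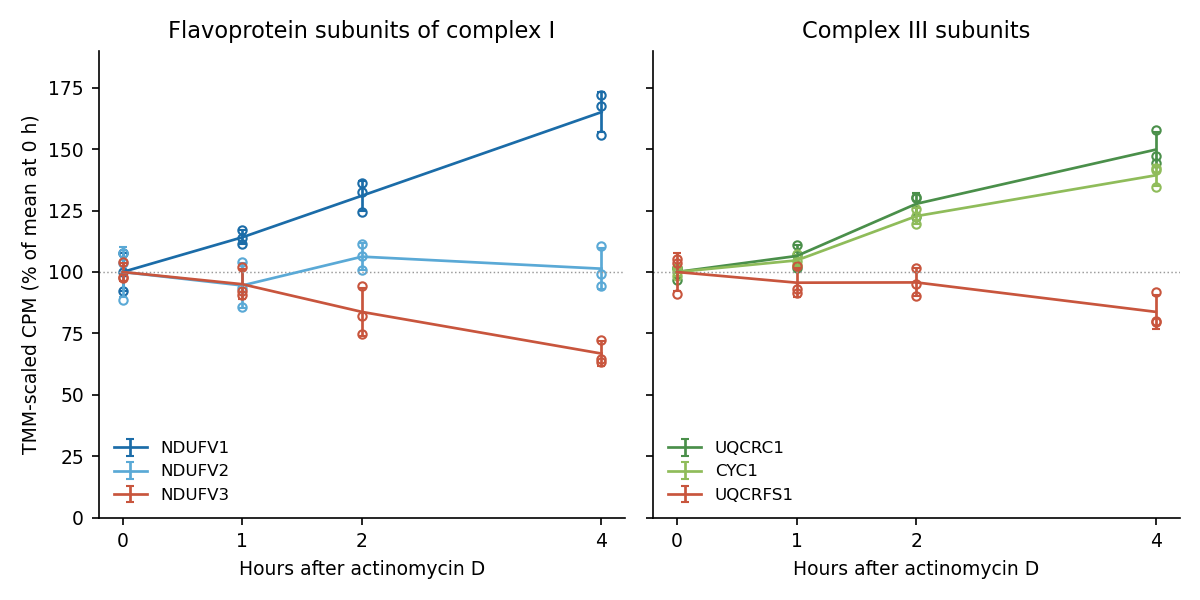
Level after TMM scaling (CPM, as percent of the gene's mean at 0 h, y axis) against hours after actinomycin D (x axis) for 3 genes of complex I (left) and 3 of complex III (right); open circles are libraries, lines and bars are means and SD of 3 replicates. NDUFV1, UQCRC1 and CYC1 rise, NDUFV2 stays near its start, and NDUFV3 and UQCRFS1 end below it, UQCRFS1 with 1 library at 4 h within the range at 0 h.

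NDUFS1 and NDUFS3, of the hydrophilic arm of complex I, had low slopes for the complex. The arm as such was not low, since NDUFV1 and NDUFS7 of the same arm had slopes of 0.18 and 0.20. NDUFC1, with a slope of 0.051, lay between NDUFS3 and NDUFS1. NDUFS1, the largest iron-sulfur subunit, was at 182, 174 and 195 CPM at 0 h and 212, 208 and 218 CPM at 4 h, a slope of 0.055 (SE 0.014, edgeR adjusted p = 0.0025) that was not past the threshold under library totals, at 0.016 with an adjusted p of 0.41. NDUFS3, which belongs to the same arm, had a slope of 0.040 (SE 0.013, edgeR adjusted p = 0.016).

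The highest slopes of complex I were those of NDUFA3 and NDUFS7. NDUFA3, an accessory subunit, was at 19.4, 22.4 and 22.9 CPM at 0 h and at 36.8, 35.4 and 41.4 CPM at 4 h, with a slope of 0.20 (SE 0.02). NDUFS7, which holds the last iron-sulfur cluster before ubiquinone, was at 20.5, 16.8 and 18.9 CPM at 0 h, at 22.4, 17.7 and 15.7 CPM at 2 h and at 27.0, 30.8 and 37.7 CPM at 4 h. Its libraries at 0, 1 and 2 h overlapped and those at 4 h stood above them all. The slope of NDUFS7 was 0.20 (SE 0.04, edgeR adjusted p = 0.00052), and without the 4 h libraries it was 0.0059 (adjusted p = 0.96). NDUFS5, an accessory subunit, had the highest level of complex I at 0 h per length of its canonical transcript, at 363 ± 18.6 CPM per kb (SD, n = 3), and a slope of 0.12.

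Low slopes in complex I were read beside the 3′ UTR of each gene's canonical GENCODE transcript. Pumilio proteins bind a short motif in 3′ UTRs and are known to promote mRNA decay, and its DNA form TGTANATA (N is any base) was searched on the transcript strand. It was in 10 of 78 tested genes with a 3′ UTR (12.8%), against 31.5% of 11383 tested genes. The pentamer ATTTA, the core of AU-rich elements that also mark unstable mRNAs, was in 37 of 78 (47.4%), against 74.9%. Respiratory chain genes had short 3′ UTRs, with a median of 194 bases against 1407, and longer UTRs hold more matches, so these shares also carry length. NDUFV2 and NDUFS3, with the lowest slopes of complex I after NDUFV3, both held TGTANATA in very short UTRs. They are printed for that reason, with the motif in capitals, from GRCh38 and 5′ to 3′ on the transcript strand: NDUFV2 is at chr18:9134281-9134310 on the plus strand, where the motif starts at base 13 of a 62-base UTR, and NDUFS3 at chr11:47584526-47584555 on the plus strand, where it starts at base 56 of 81.
NDUFV2: ttatattgaacTGTAAATAtgtcactagag
NDUFS3: ttgagtgtccgTGTAAATAaattcctactt
Both carry the letters TGTAAATA. NDUFS1 had 3 matches, the first at base 8246 of a 9368-base UTR, and NDUFA9, with a slope of 0.095, had 2 in 7209 bases. A match is a run of letters and not a shown binding site.

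Genes with the motif had lower median slopes both among the 79 and among all tested genes. The motif was not separated from UTR length in this comparison. The 10 with TGTANATA had a median slope of 0.082, with 7 rising and 3 (NDUFV2, ATP5E and ATP5S) not past the threshold. ATP5E and ATP5S had low counts, with means of 16.2 and 76 per library. The 68 without the motif had a median of 0.125, with 65 rising and 2 falling. Among all tested genes the medians were -0.056 for the 3581 with it and 0.038 for the 7802 without it. In the 3581 there were 587 rising and 1694 falling genes, and in the 7802 there were 2982 and 2017. For ATTTA the medians were 0.108 and 0.130 among respiratory chain genes and -0.012 and 0.078 among all. Across the 79 genes, slope had a Spearman correlation of -0.34 with 3′ UTR length, -0.44 with transcript length and 0.56 with GC content of the transcript. Over all tested genes with a transcript these were -0.27, -0.24 and 0.27. The GC correlation among the 79 was 0.40, 0.55 and 0.51 in single replicates. That with 3′ UTR length was -0.20, -0.37 and -0.33, and that with transcript length -0.36, -0.43 and -0.44. Genes share the same libraries and are not replicates, so no p is given, and whether base composition affected the counts was not tested.

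Complex II, which is also succinate dehydrogenase of the citric acid cycle, was the smallest and the least raised. SDHA, the flavoprotein, was at 135, 140.1 and 143 CPM at 0 h and 161, 157 and 158 CPM at 4 h. Its groups did not overlap, and its slope was 0.046 (SE 0.012, edgeR adjusted p = 0.0040), which was 0.039 without replicate 1 (adjusted p = 0.057), 0.030 without the 0 h libraries (adjusted p = 0.16) and 0.0070 under library totals (adjusted p = 0.68). SDHB, the iron-sulfur subunit, rose from 143, 143 and 146 CPM to 175, 174 and 173 CPM, with a slope of 0.076 (SE 0.013). The membrane anchors differed. SDHC rose from 49.2, 51.6 and 54.6 CPM to 71.5, 69.8 and 73.8 CPM, with no overlap and a slope of 0.13 (SE 0.02, edgeR adjusted p = 2.7e-05). SDHD was at 59.2, 70.4 and 70.9 CPM at 0 h and 65.3, 73.6 and 74.5 CPM at 4 h. The groups overlapped, while each replicate was higher at 4 h than at 0 h, with a slope of 0.032 (SE 0.021, edgeR adjusted p = 0.20; 0.061 with the replicate block). Per kb of canonical transcript SDHB had the highest level at 0 h, 142 ± 1.53 CPM per kb, and SDHC the lowest, 39.6 ± 2.05. Per coding kb SDHB was again the highest, at 171 CPM per kb, but SDHA was the lowest, at 69.8.

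In complex III, which passes electrons from ubiquinol to cytochrome c, the Rieske iron-sulfur protein went against the rest. UQCRFS1, its gene, was at 101, 117 and 115 CPM at 0 h, at 103, 114 and 102 at 1 h, at 105, 113 and 100.4 at 2 h and at 88.6, 102 and 88.3 at 4 h. Replicate 2 was the highest at every time, and its 4 h value lay just above the lowest value at 0 h. The slope of UQCRFS1 was -0.061 (SE 0.019, edgeR adjusted p = 0.0095). Without replicate 3 it was -0.053 (adjusted p = 0.065) and without the 4 h libraries -0.020 (adjusted p = 0.71). CYC1, the cytochrome c1 gene, was at 214, 210.3 and 217 CPM at 0 h and 304, 287 and 302 CPM at 4 h, with a slope of 0.13 (SE 0.01). UQCRC1, a core protein of the complex, rose from 123, 129 and 129 CPM to 200.5, 183 and 187 CPM and UQCRQ, a small subunit, from 91.3, 88.3 and 93.5 CPM to 134, 137 and 128 CPM, both with a slope of 0.15. UQCRB, another small subunit, had the lowest slope among the 9 that rose, 0.091.

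The ratio of UQCRFS1 to CYC1 was 0.520 ± 0.042 at 0 h, 0.475 ± 0.039 at 1 h, 0.406 ± 0.035 at 2 h and 0.313 ± 0.036 at 4 h, which left 60.3%, and that of UQCRFS1 to UQCRC1 fell to 56.2% of its start. In all 3 replicates each ratio was lower at 4 h than at 0 h. Both pairs were chosen after the slopes were known, with no test. The fallers held ATTTA, 5 times in the 2228-base 3′ UTR of UQCRFS1 and 2 times in the 4278-base 3′ UTR of NDUFV3, and no TGTANATA. The first match in UQCRFS1, on the minus strand at chr19:29207384-29207412, and the first in NDUFV3, on the plus strand at chr21:42910772-42910800, both GRCh38, are printed with ATTTA in capitals to show that neither lies in a run of overlapping repeats.
UQCRFS1: gaaataaattgaATTTAatgttgaatact
NDUFV3: gctattttacctATTTAgggtttctgggt
Of the 37 genes with ATTTA 32 rose, among them UQCRB with 24 matches and COX8A with 1, and 2 fell. Of the 41 without it 40 rose and 0 fell, with a lowest slope of 0.015. Among all tested genes, 2148 rose and 3175 fell of the 8524 with ATTTA. Of the 2859 without it, 1421 rose and 536 fell. Whether the motif affected these slopes was not tested. Matches were counted in annotated 3′ UTRs, and whether these cells used those UTRs was not tested either. UQCRH, the hinge protein gene with the highest level per kb of the complex at 0 h, 292 ± 17.6 CPM per kb, had a slope of 0.14, and its intronless near-copy UQCRHL 0.12. How reads shared by these were assigned is not known, so both values are uncertain.

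Complex IV, cytochrome c oxidase, was the most uniform. All 11 tested genes rose, from 0.105 for COX5A to 0.178 for COX8A, and each was higher at 4 h in all 3 libraries than in any at 0 h. COX8A, a small membrane subunit, was at 114, 109 and 123 CPM at 0 h, at 126, 123 and 122 at 1 h, at 151, 140.0 and 142 at 2 h and at 183, 185 and 189 at 4 h. This was the smallest p among the 79 genes (SE 0.01, edgeR adjusted p = 1.8e-08). COX6B1, which faces the side where cytochrome c docks, rose from 95.6, 102 and 109 CPM to 161, 158 and 159 CPM with a slope of 0.16 (SE 0.01). COX7C, the highest of the complex per kb at 0 h with 323 ± 16.0 CPM per kb, rose from 191, 209.6 and 208 CPM to 255, 278 and 277 CPM, with a slope of 0.11 (SE 0.02). COX5A, a subunit on the matrix side, rose from 113, 132 and 129 CPM to 164, 163 and 168 CPM.

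Complex V has a catalytic head, F1, and a membrane ring of c subunits, joined by a central and a peripheral stalk. Of the head, ATP5B (beta) had the highest level of the 79 per kb of canonical transcript, 635 ± 17.9 CPM per kb at 0 h (per coding kb it was at 702 and COX7C at 1057 CPM per kb), and rose from 1120, 1083 and 1146 CPM to 1581, 1498 and 1551 CPM with a slope of 0.12 (SE 0.01). ATP5A1 (alpha), which pairs with beta in the head, rose less, from 629, 644 and 677 CPM to 760.2, 768 and 779.9 CPM, with the lowest slope of the complex, 0.066 (SE 0.014, edgeR adjusted p = 0.00059). Under library totals the slope of ATP5A1 was 0.027 (adjusted p = 0.14). The ratio of ATP5A1 to ATP5B, a pair chosen after the slopes were seen, was 0.583 ± 0.018 at 0 h and 0.499 ± 0.016 at 4 h, without overlap. ATP5D (delta, in the central stalk) rose from 34.4, 32.2 and 37.1 CPM to 51.7, 53.9 and 66.0 CPM with a slope of 0.18 (SE 0.02), which without the 4 h libraries was 0.11 (edgeR adjusted p = 0.074). ATP5E (epsilon) had only 8 to 24 counts per library, and its slope was 0.15 (SE 0.09, edgeR adjusted p = 0.15). At 4 h against 0 h it passed only with the replicate block (edgeR adjusted p = 0.045). How reads shared with copies of ATP5E were counted is not known, so its low count is uncertain. The 4 genes of the peripheral stalk, ATP5F1, ATP5H, ATP5J and ATP5O, lay within 0.098 to 0.115.

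The c subunit is made from 3 genes, ATP5G1, ATP5G2 and ATP5G3, which give the same mature protein with different import peptides. Of 11 pairs of related genes listed, 4 had both genes past the filter, and their count ratios were tested with a two-sided exact permutation test of the time labels over the 12 libraries (369600 arrangements), adjusted over the 4 pairs. ATP5G1 rose from 47.9, 44.3 and 51.4 CPM to 78.1, 77.8 and 74.1 CPM, a slope of 0.18. ATP5G2 rose from 222, 228 and 228 CPM to 318, 285 and 297 CPM and ATP5G3 from 225, 238 and 237 CPM to 293, 313 and 310.1 CPM, each with a slope of 0.11. The ratio of ATP5G1 to ATP5G2 was 0.212 ± 0.016 at 0 h and 0.256 ± 0.015 at 4 h (n = 3), a slope of 0.073 per hour (exact permutation p = 0.0041, adjusted p = 0.0083). The ratio to ATP5G3 was 0.205 ± 0.017 and 0.251 ± 0.014, a slope of 0.071 (exact permutation p = 0.0024, adjusted p = 0.0083). Both ratios were higher at 4 h than at 0 h without overlap. ATP5G2 to ATP5G3 had a slope of -0.0016 (exact permutation p = 0.92). The adjusted p of ATP5G1 to ATP5G2 was 0.094 without replicate 1 and 0.069 without replicate 2, and that of ATP5G1 to ATP5G3 was 0.094 without replicate 1, both by exact permutation with 2 libraries per time.

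**Figure D4:**
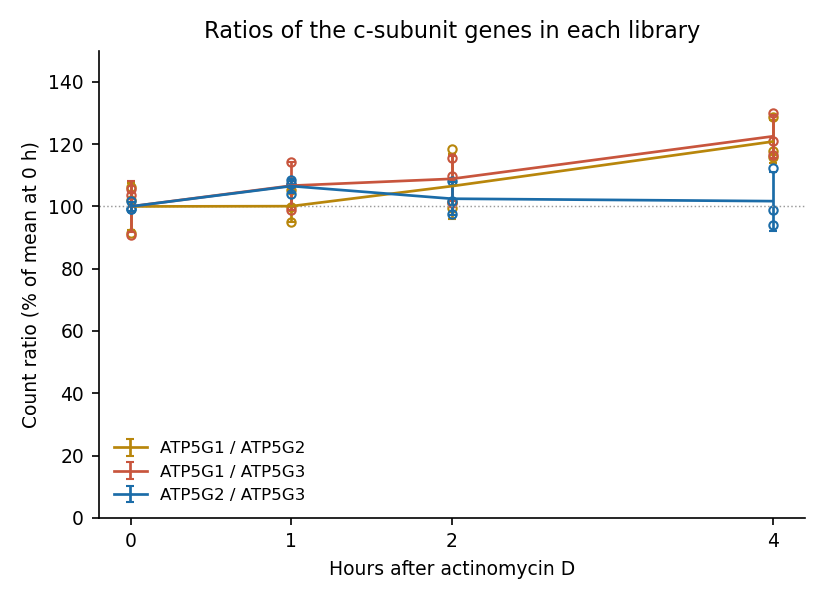
Ratio of counts of each pair of c-subunit genes (percent of its mean at 0 h, y axis) against hours after actinomycin D (x axis); open circles are libraries, lines and bars are means and SD of 3 replicates. At 4 h all 3 libraries of both ATP5G1 ratios lie above 100%, while those of ATP5G2 to ATP5G3 lie on both sides of it.

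The pair of COX7A2, a complex IV subunit, and COX7A2L, the supercomplex factor related to it, had a ratio of 1.28 ± 0.114 at 0 h and 1.42 ± 0.127 at 4 h, with overlap. The slope was 0.039 (exact permutation p = 0.078, adjusted p = 0.10). With times permuted only within replicate numbers as a block, the adjusted p was 0.0036. The slope was 0.035, 0.035 and 0.048 in the 3 replicates. COX7A2L itself had a slope of 0.097 (SE 0.017), ATP5SL 0.12 (SE 0.01) and ATP5S, at 6.25 to 8.64 CPM over all libraries, 0.026 (SE 0.037, edgeR adjusted p = 0.56).

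Most of the change was measured after the first hour. Between 0 and 1 h edgeR called 0 of the 79 higher and 0 lower (5 and 0 at an unadjusted p below 0.05), against 0.349% and 2.24% of all tested genes. Between 1 and 2 h it called 33 higher and 0 lower (0 lower also unadjusted), against 3.76% and 12.5%. Between 2 and 4 h 54 were higher and 1 (NDUFV3) lower, against 12% and 18.3%. The median log2 change of the 79 over these intervals was 0.021, 0.19 and 0.22, and that of all tested genes -0.022, 0.013 and 0.020. By complex, the median over the first hour was 0.033 for I, -0.038 for II, 0.020 for III, 0.0028 for IV and 0.011 for V, and over the second hour 0.16, 0.13, 0.23, 0.22 and 0.22. The last interval is longer than the others.

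With the replicate number as a block in edgeR, 3 were higher in the first interval (6.18% of all tested genes), 60 in the second (17%), and in the third 63 were higher (25.3% of all tested genes) and 2 lower (25.3%). A test of departure from a straight line called 0 of the 79 without the block (13 at an unadjusted p below 0.05; 2.7% of all tested genes) and 23 with it (17.2%). These 23 were 7 in complex I, 1 in II, 3 in III, 5 in IV and 7 in V, led by COX6C and UQCRQ, with log2 changes of -0.15 and -0.072 from 0 to 1 h, neither past the threshold. For such genes a single slope is an average over the course.

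**Figure D5:**
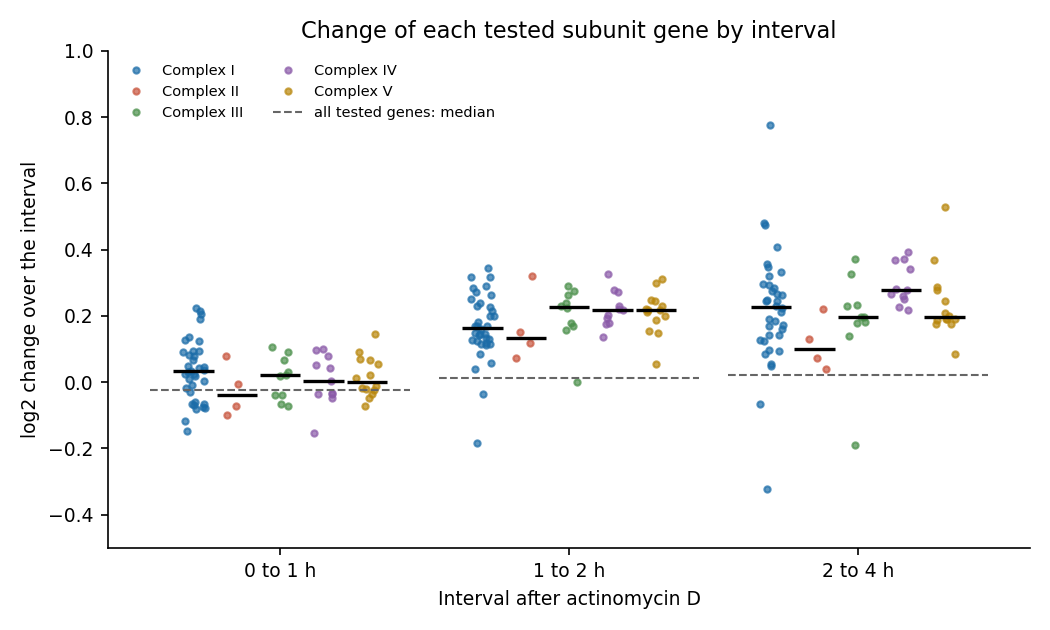
Log2 change (y axis) of each tested subunit gene over 3 intervals after actinomycin D (x axis), coloured by complex, with black lines at the median of each complex and a dashed line at the median of all tested genes; ATP5E, with 8 to 24 counts, is left out of this plot. The points centre near 0 in the first hour and mostly lie above the dashed line from 1 h on.

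Genes that serve the same complexes were counted in lists, to be read against the 30.7% of all tested genes that rose and the 32.1% that fell. The 5 other respiratory chain genes, NDUFAB1, CYCS (cytochrome c), ATPIF1, USMG5 and C14orf2, all rose, with slopes of 0.089 to 0.112. Assembly factors of complex I rose in 11 and fell in 2 of 18, with a median of 0.063. NDUFAF3 had the highest slope of these, 0.17 (SE 0.03), and TMEM186 the lowest, -0.76 (SE 0.06); ATP5SL is in this list too. For complex II 0 of 4 rose by edgeR and 1, SDHAF1, fell (-0.55, SE 0.08), while SDHAF3 was highest at 0.015. For complex III 5 of 6 rose, from 0.050 for TTC19 to 0.11 for BCS1L, and the sixth did not pass the threshold. For complex IV 6 of 22 rose and 7 fell, from -0.63 (SE 0.03) for COA7 to 0.13 for SURF1. For complex V 3 of 5 rose and 1 fell, from -0.27 for TMEM70 to 0.22 for C7orf55. Of 16 regulators of mitochondrial gene expression, PPARGC1A was at 0 in every library, and of the 15 tested 2 rose and 7 fell, from -0.46 (SE 0.04) for NRF1, a transcription factor for many subunit genes, to 0.13 for SLIRP, a mitochondrial RNA-binding protein.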

How the data were processed

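The table deposited by the authors holds raw, whole-number counts for each gene symbol in 12 libraries (Illumina TruSeq stranded mRNA). The submitters' processing notes name FastQC, STAR and hg19. Versions, the counter, its strand setting and its treatment of reads shared by paralogs or processed pseudogenes, which many of these genes have, are not given in the sources used here, and such counts are uncertain to that extent. Each column was matched to its sample by title, with 0 columns unmatched.

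Slopes and contrasts were fitted in R 4.3.3 with edgeR 4.0.16 (TMM factors 0.924 to 1.05, mean of at least 10 counts, 12032 genes, glmQLFit and glmQLFTest, Benjamini-Hochberg over all of them). Time was a number for slopes and 4 groups for intervals, without a block. Scripts were tested on simulated data. CPM values use the TMM-scaled library size. Pair ratios used a pseudocount of 0.5. DESeq2 1.42.0 was an alternative. Transcript lengths, UTRs and sequences came from GENCODE 44 on GRCh38; the count table holds no coordinates.

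Members and lists were chosen with earlier results of these data known. Genes are named as the 2 lowest and 2 highest slopes and the highest level per kb of each complex, the genes of complex II, CYC1, NDUFS1, UQCRFS1, tested pairs, non-subunits, all that fell, those below the filter and each list's extremes; all others named were chosen after their values were seen.

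Same-numbered libraries deviated together from their time means (18 pairs, correlations of 0.300 to 0.612), so the replicate numbers in the labels pair them. Libraries of a time differed by more than sampling noise in all 12 pairs. The labels call the replicates biological. The main fits and ratio tests take the 12 libraries as independent and leave this pairing out. The spread behind their p-values therefore includes offsets between replicate numbers. Some single-gene results are not reported here.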

Additional observations from a re-analysis of the deposited data

How the results depend on the processing

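Scaling decided the direction of most slopes. With GAPDH plus ACTB as the scale, 0 genes rose and 12 fell by slope, and 0 were higher and 13 lower at 4 h. Medians there were -0.017 for all 79 tested genes and -0.017, -0.077, -0.013, -0.0022 and -0.022 for complexes I to V. Of the 79 slopes, 52 changed sign there, and among the 31 genes named by rule these were ATP5A1 -0.072, ATP5B -0.014, ATP5G2 -0.033, ATP5G3 -0.031, ATP5O -0.040, ATP5S -0.11, ATP5SL -0.020, COX5A -0.033, COX7A2 -0.0022, COX7A2L -0.042, COX7C -0.023, CYC1 -0.012, NDUFS1 -0.084, NDUFS5 -0.017, NDUFV2 -0.12, SDHA -0.092, SDHB -0.063, SDHC -0.0052, SDHD -0.11 and UQCRB -0.046. Under library totals 64 rose and 2 fell (18.7% and 39.1% of all tested genes), the medians were 0.082 for the 79 and 0.081, 0.022, 0.086, 0.097 and 0.076 for complexes I to V, and ATP5S (-0.013), NDUFV2 (-0.025) and SDHD (-0.0070) changed sign. A scale shifts every gene alike and leaves the excess over all tested genes nearly fixed; over the other settings that excess, an alternative chosen after seeing the data, was 0.103 to 0.124 for the 79. DESeq2's size factors gave 73 rising and 2 falling (30.8% and 32.0% of all tested genes). Its Wald test also gave 73 and 2 (30.5% and 31.8%). Without the count filter 70 of 82 rose and 2 fell, and with a mean of at least 30 counts 73 of 78 rose and 2 fell.

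Without the 4 h libraries 55 genes rose and 0 fell by edgeR (1 fell at an unadjusted p below 0.05), against 12% and 18.4% of all tested genes, the medians of complexes II and III were 0.085 and 0.115, and ATP5S was at -0.0014. Without the 0 h libraries the medians of the 79, complex I and complex IV were 0.134, 0.134 and 0.168. Leaving out each replicate gave 70 to 71 rising and 1 to 2 falling by slope (24.6% to 27.8% and 28.8% to 30.7% of all tested genes) and 1 to 2 lower at 4 h, the lower counts without replicate 3, with medians of 0.110 to 0.119 for complex I and 0.114 to 0.127 for complex III. The ratio slopes were then 0.0465 to 0.0873 for ATP5G1 to ATP5G2, 0.0563 to 0.0916 for ATP5G1 to ATP5G3, -0.0188 to 0.0098 for ATP5G2 to ATP5G3 (0.0098 without replicate 2 and 0.0043 without replicate 3) and 0.0348 to 0.0414 for COX7A2 to COX7A2L. With the replicate block, 73 rose and 2 fell by slope (36.2% and 34.8% of all tested genes), and 23 departed from a line. There 3 were higher from 0 to 1 h and 60 from 1 to 2 h. From 2 to 4 h 63 were higher and 2 lower. At 4 h against 0 h 74 were higher and 2 lower, and the slope of COX7A2 to COX7A2L was 0.039 and passed. Interval counts with the block were added after seeing the data, and the cause of these changes was not tested. The block changed no slope call of the 31 genes and no other ratio. A pseudocount of 5 counts changed no call of the 4 ratios. Over all alternatives of the slope, 24 values of the 31 genes changed sign and 23 lost significance in the same direction. ATP5E had 8 to 24 counts per library.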
